A study of Drosophila melanogaster with 4 samples.

Results

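H3K18ac clusters on the X chromosome arm of *Drosophila melanogaster* were examined in adult heads. A cluster is a region that the deposited lists mark as enriched for histone H3 acetylated at lysine 18, with a score above 0. Clusters were taken when their midpoint lay on the X at or below position 20180545 of FlyBase release 5, which leaves out the 10% of the sequence next to the centromere. This gave 1523 of the 8107 clusters in the list of the replicate set, 1172 of 6380 in replicate 1 and 1183 of 6248 in replicate 2. The comparison throughout was with the 4 autosomal arms 2L, 2R, 3L and 3R, trimmed in the same way, which held 5973, 4779 and 4594 clusters in these lists. The cluster next to the limit on the inside had a score of 0.642 in the replicate set and the next one on the outside had 0.449.

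The study holds 2 ChIP libraries made with a new lot of antibody to H3K18ac and 2 input libraries of chromatin without immunoprecipitation. All 4 came from head chromatin of wild-type Oregon-R flies, a laboratory strain, labelled as mixed adults. The flies were raised in population cages and their heads were collected with sieves, so each library pools many animals and cell types, and the labels do not separate the sexes. The labels do not state that the ChIP libraries were made from separate fly collections, and the difference between them may be a technical one. By its label, each input served for the region list of the ChIP replicate of the same number. Inputs have no list here, and read depth is unknown for all lists.

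In flies the acetyltransferase CBP, encoded by *nejire*, acetylates H3 at this lysine, and the mark is generally found over active promoters and enhancers. The X is present in a single copy in males, where the male-specific lethal (MSL) complex binds it and raises transcription of its genes in a process called dosage compensation. The MSL complex acts through acetylation of histone H4 by the enzyme MOF, a different mark from the one measured here. Female flies carry a pair of X chromosomes and do not assemble the complex. No gene is named for any cluster, because an annotation of release 5 was not used here.

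H3K18ac clusters on the X arm had higher scores than autosomal clusters, were somewhat more numerous per Mb and were less often very wide. The median score was 0.721 on the X arm in replicate 1, against 0.597 on the autosomal arms. In replicate 2 it was 0.699 on the X arm and 0.566 on the autosomal arms. In the replicate set it was 0.497 on the X arm and 0.397 on the autosomal arms. The difference between X and autosomal medians averaged 0.129 ± 0.00639 (SD, n = 2 replicates), which is larger than the spread between replicates of the X median (0.0157) and of the autosomal median (0.0220). In all 3 lists the X median lay above that of each of the 4 autosomal arms, whose medians ran from 0.588 to 0.607 in replicate 1 and from 0.559 to 0.569 in replicate 2. Both ChIP libraries belong to one group, so no test between samples was run. A sign test over 2 libraries could not give a two-sided p below 0.5.

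**Figure D1:**
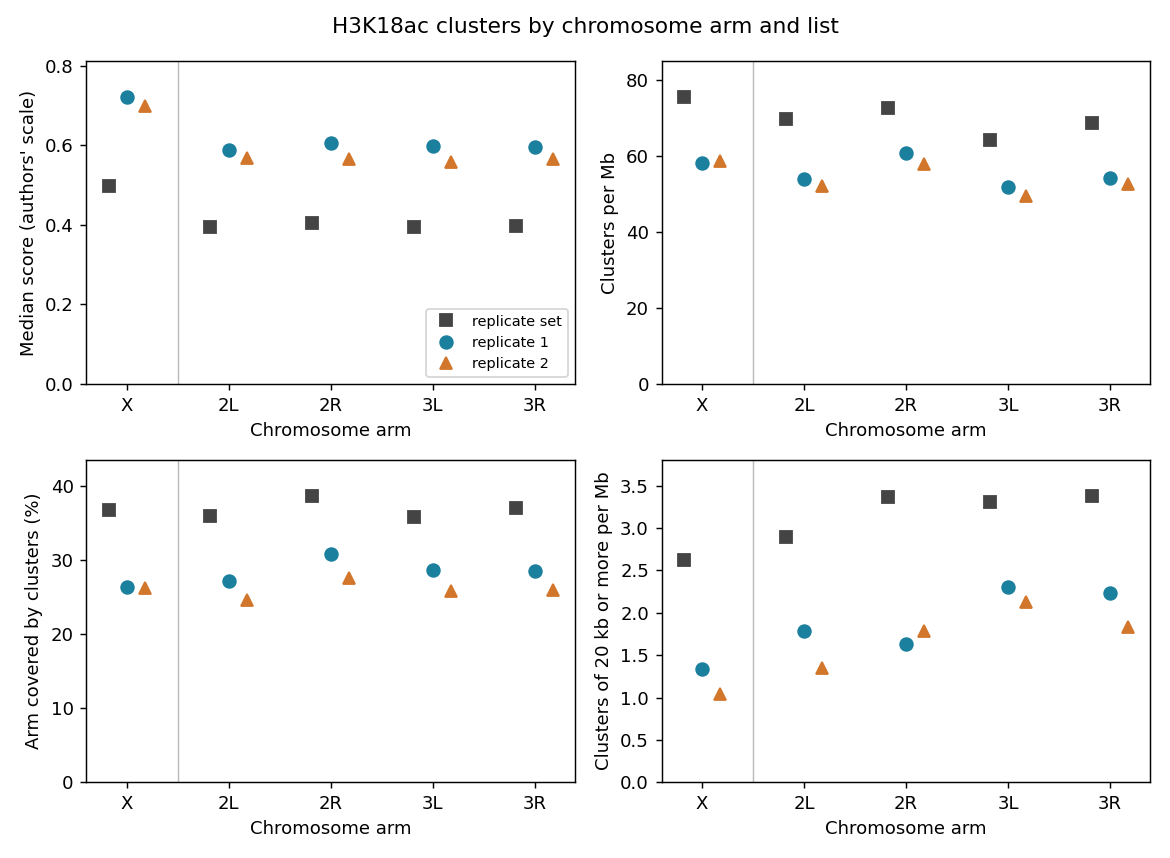
Median cluster score, clusters per Mb, percentage of the arm covered and clusters of 20 kb or more per Mb (vertical axes, each starting at 0) for the X arm and the 4 autosomal arms (horizontal axis) in the 3 lists, 1 point per list. The X arm has the highest median score and the fewest clusters of 20 kb or more per Mb in each list, while its coverage is within the range of the other arms in the replicate set and replicate 2.

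The score difference was present along the whole range of clusters and not only among the strongest. At the 1st percentile, the score was 0.324 on the X arm and 0.249 on the autosomal arms in replicate 1. The same percentile gave 0.267 on the X arm and 0.172 on the autosomal arms in replicate 2. At the 99th percentile, it was 1.61 on the X arm and 1.42 on the autosomal arms in replicate 1. In replicate 2 the 99th percentile was 1.47 on the X arm and 1.28 on the autosomal arms. The difference thus ran from 0.0746 at the 1st to 0.192 at the 99th percentile in replicate 1, and from 0.0949 to 0.184 in replicate 2. The ratio of X to autosomal score went the other way between these percentiles. It was 1.30 at the 1st and 1.14 at the 99th in replicate 1, and 1.55 and 1.14 in replicate 2. In the set it was 1.70 and 1.15. At each of the 9 percentiles computed in each list, the X value lay above the highest of the 4 autosomal arms. The scale of the score, and how ChIP was set against input to make it, were not given in the sources used here. These differences and ratios cannot be read as folds of acetylation.

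**Figure D2:**
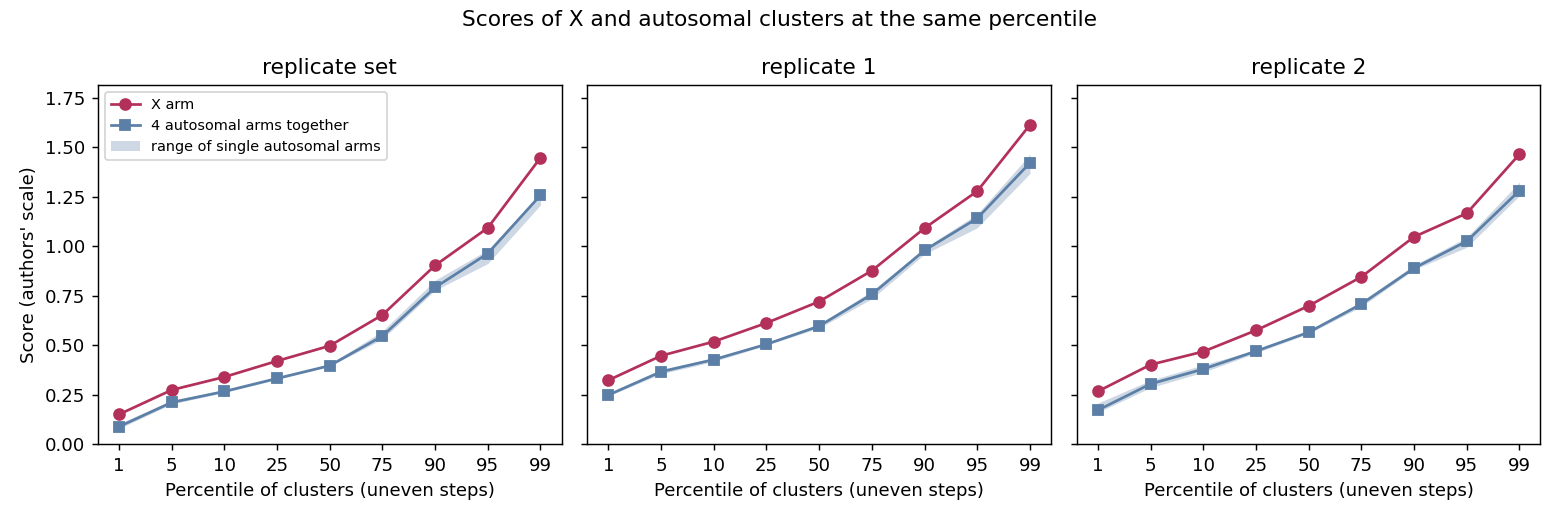
Score in the authors' units (vertical axis) at 9 percentiles of the clusters (horizontal axis, uneven steps), for the X arm and for the 4 autosomal arms together, in each list. The shaded band is the range over the single autosomal arms, and the X line runs above it at every percentile shown.

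Clusters of the X arm were over-represented among those with high scores and scarce among those with low scores. Of all clusters on the 5 arms, 19.7% lay on the X arm in replicate 1, 20.5% in replicate 2 and 20.3% in the replicate set. Of the 10% with the highest score, the X arm held 29.4% and 34.1% in replicates 1 and 2, and 27.1% in the set. Its share of the top 1% was 22 of 60 and 27 of 58 clusters in replicates 1 and 2, and 30 of 75 in the set. Of the 10% with the lowest score, it held 8.40% and 9.17% in replicates 1 and 2, and 10.3% in the set. These shares were counted on the clusters that make up the medians above and are the same difference seen in another way.

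The higher scores were not accompanied by greater width. The median width was 2681 bp on the X arm and 2748 bp on the autosomal arms in replicate 1. In replicate 2 it was 2616 bp on the X arm and 2628 bp on the autosomal arms. These medians differed by 39.5 bp on average, less than the spread between replicates of the autosomal median (84.9 bp). In the replicate set the X median was the higher one, 2555 bp against 2395 bp, so the direction depended on the list. The lists also differ in their lower limit, as the narrowest X cluster had 1001 bp in the set and 1301 bp in each replicate. With set clusters held to at least the narrowest replicate cluster, the set difference fell from 160.0 bp to 11.0 bp. This restriction was chosen after seeing the data. The sign of this small difference therefore cannot be given.

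The X arm had fewer clusters of 20 kb or more per Mb than each autosomal arm, while at 10 kb this depended on the list. Clusters of 10 kb or more, called broad, made up 118 of 1172 X clusters in replicate 1 (10.1%), where 11.9% of the whole list was broad. In replicate 2 they made up 107 of 1183 X clusters (9.04%), where 10.3% of the whole list was broad. In the replicate set 174 of 1523 X clusters were broad (11.4%), against 12.8% of the whole list. These shares lie close to those of the whole lists. On the autosomal arms together the share was 12.5% and 10.8% in replicates 1 and 2, and 13.4% in the set. The X share was below that of each autosomal arm in all 3 lists. The nearest arm was 2L, with 11.7% and 9.94% in replicates 1 and 2, and 12.4% in the set. Per Mb, broad clusters numbered 5.85 on the X arm and 6.87 on the autosomal arms in replicate 1. The values were 5.30 and 5.73 in replicate 2, and 8.62 and 9.24 in the set. The X value was below each autosomal arm in replicate 1 only, and within their range in replicate 2 and the set. On this measure the gap was wider at 20 kb. The X arm had 1.34 clusters of 20 kb or more per Mb in replicate 1, against 2.01 per Mb on the autosomal arms. In replicate 2 it had 1.04 per Mb, against 1.78 per Mb on the autosomal arms. The X value was below each autosomal arm in all 3 lists, and its ratio to the autosomal value was 0.624 ± 0.0573 (SD, n = 2). In the replicate set the X arm had 2.63 per Mb, against 3.24 per Mb on the autosomal arms, a ratio of 0.810. These counts are small, with 27 and 21 X clusters in replicates 1 and 2, and 53 in the set.

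X clusters of 2 to 5 kb held a greater part of the cluster width than on the autosomal arms, and the very wide ones a smaller part. In replicate 1 they held 27.8% of all cluster width on the X arm and 22.6% on the autosomal arms. In replicate 2 they held 29.0% on the X arm and 24.1% on the autosomal arms. Clusters of 20 kb or more held 13.8% of the width on the X arm and 22.9% on the autosomal arms in replicate 1. The same class held 12.1% on the X arm and 21.1% on the autosomal arms in replicate 2.

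Width and score rose together on the X arm, as on the other arms. The Spearman correlation across X clusters was 0.789 and 0.767 in replicates 1 and 2, and 0.696 in the replicate set. It is a description across 1172, 1183 and 1523 regions of the same libraries and not across independent samples. The score difference was present in each of the 5 width classes. For clusters under 2 kb, the median score was 0.576 on the X arm and 0.479 on the autosomal arms in replicate 1. In replicate 2 this class had 0.555 on the X arm and 0.453 on the autosomal arms. For clusters of 20 kb or more, the median was 1.32 on the X arm and 1.06 on the autosomal arms in replicate 1. Replicate 2 had 1.28 on the X arm and 0.944 on the autosomal arms in this class. In every class and list, the X median was above that of each autosomal arm. The difference was greater in wide clusters, with 0.258 at 20 kb or more and 0.0969 under 2 kb in replicate 1. It was 0.341 and 0.102 in replicate 2, and 0.188 and 0.0870 in the set. Scores themselves rose with width, however. The ratio of X to autosomal median was 1.242 at 20 kb or more and 1.202 under 2 kb in replicate 1. It was 1.361 and 1.226 in replicate 2, but 1.221 and 1.261 in the set, so its direction depended on the list. The widest class held 27 and 21 X clusters in replicates 1 and 2, and 53 in the set.

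**Figure D3:**
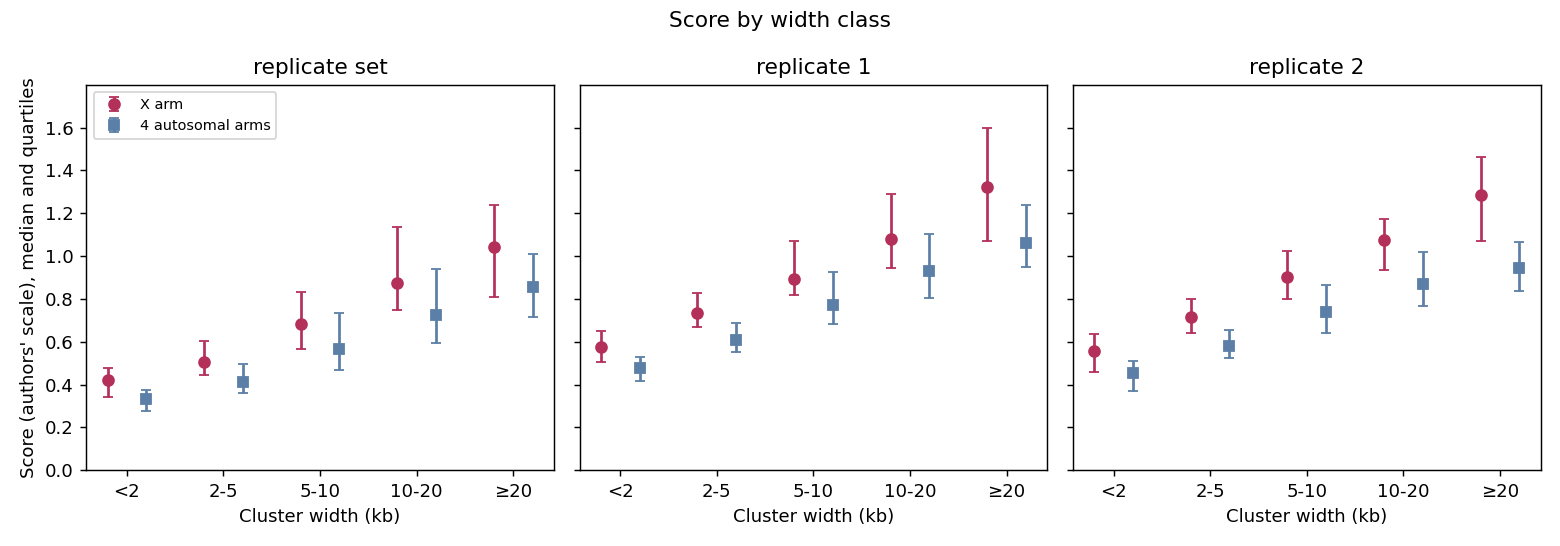
Median score with its quartiles (vertical axis, authors' units) by width class in kb (horizontal axis) for X clusters and for clusters of the 4 autosomal arms, in each list. The X median is the higher of each pair, from clusters under 2 kb to those of 20 kb or more.

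Clusters covered about as much of the X arm as of the autosomal arms, and the replicates differed on whether it was less. The X arm was covered to 26.4% in replicate 1, against 28.7% of the autosomal arms. Replicate 2 covered it to 26.1%, against 25.9% of the autosomal arms. In the replicate set both values were 36.8%. Coverage of the X arm was thus nearly equal in the replicates, 26.3% ± 0.175 (SD, n = 2), while autosomal coverage varied more, 27.3% ± 1.97 (SD, n = 2). Replicate 1 was the more covered list in 11 of 20 windows of 1 Mb on the X arm and in 81 of 84 such windows on the autosomal arms. The X to autosome ratio of coverage, 0.963 ± 0.0630 (SD, n = 2), did not differ from 1 by more than the spread between replicates.

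The number of clusters per Mb was 58.1 on the X arm and 55.0 on the autosomal arms in replicate 1. In replicate 2 it was 58.6 on the X arm and 52.8 on the autosomal arms. The ratio of X to autosomal density was 1.08 ± 0.0374 (SD, n = 2). In replicate 1 arm 2R was denser than the X arm, with 60.7 clusters per Mb, whereas in replicate 2 and in the set the X arm was the densest of the 5. The median distance between neighbouring clusters was 4450.0 bp on the X arm and 4109 bp on the autosomal arms in replicate 1. Replicate 2 had 4458.5 bp on the X arm and 4604 bp on the autosomal arms, so the direction differed between the replicates.

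Coverage varied along the X arm, though less than between autosomal windows. Among 20 windows of 1 Mb, coverage ran from 16.4% to 35.5% in replicate 1 and from 17.4% to 37.0% in replicate 2. The SD over windows was 5.80 percentage points on the X arm and 8.55 on the autosomal arms in replicate 1, and 5.90 on the X arm and 7.92 on the autosomal arms in replicate 2. The most covered windows by the mean of the replicates were those from 10000001 to 11000000 (36.3% ± 1.10), from 6000001 to 7000000 (35.8% ± 1.47) and from 13000001 to 14000000 (32.6% ± 2.28; SD, n = 2 for each). The least covered were those from 7000001 to 8000000 (16.9% ± 0.673), from 4000001 to 5000000 (18.5% ± 0.559) and from 14000001 to 15000000 (19.0% ± 0.111). The sparsest window thus lies next to one of the fullest. Across the 20 windows, which share libraries, coverage in the replicates had a Spearman correlation of 0.967 and a Pearson correlation of 0.967.

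Median scores of the X windows ranged over 0.666 to 0.792 (replicate 1), 0.617 to 0.751 (replicate 2) and 0.469 to 0.536 (replicate set). The middle autosomal window had 0.597 and 0.570 in replicates 1 and 2, and 0.397 in the set. All 20 X windows were above the 90th percentile of the 84 autosomal windows in each of the 3 lists. The ranges nevertheless overlapped, since the highest autosomal window reached 0.751 in replicate 1, and 4 X windows of replicate 1, 17 of replicate 2 and 14 of the set exceeded every autosomal window. The order of the X windows by score was less alike between replicates than their order by coverage, with a Spearman correlation of 0.457 across the same windows. The window from 2000001 to 3000000, picked after its values were seen, is an example, with a median score of 0.709 in replicate 1 and 0.617 in replicate 2. The higher scores of the X clusters were therefore spread over the arm and not gathered in a few windows.

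**Figure D4:**
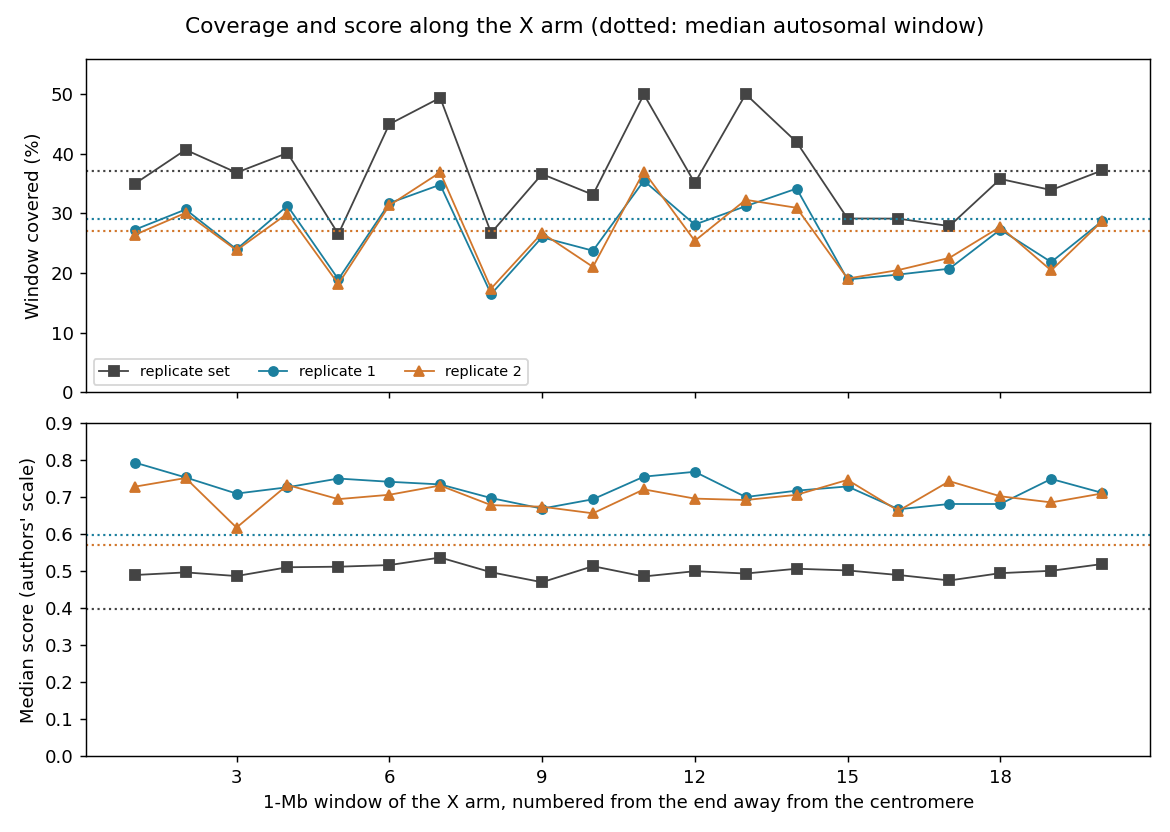
Percentage of each 1-Mb window covered (upper panel) and median cluster score in the authors' units (lower panel) for the 20 windows of the X arm, numbered from the end away from the centromere, in the 3 lists. Dotted lines mark the median autosomal window of each list. Coverage swings above and below its line, while the score stays above its line in every window.

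Long stretches of the X arm, as of the autosomal arms, had no cluster in the replicate set. The longest gap between neighbouring clusters ran from 4339413 to 4536759 and measured 197 kb, in the sparse window from 4000001 to 5000000. Replicate 1 had no cluster in it, and 2 clusters of replicate 2 covered 0.907% of it. The next gaps ran from 200419 to 372799 (172 kb), from 7630289 to 7782435 (152 kb), from 8608795 to 8751499 (143 kb) and from 7361621 to 7500757 (139 kb). In these 4 gaps the clusters of either replicate covered at most 0.0715%, by reaching over an edge. Such gaps were not particular to the X arm. In the set the longest gap of each autosomal arm was longer, from 214 kb on 3L to 328 kb on 3R. The longest X gap was 270 kb in replicate 1, where autosomal arms had 233 to 352 kb. In replicate 2 it was 288 kb, where autosomal arms had 252 to 349 kb. Mappability was not measured, so a gap may hold sequence to which reads could not be assigned.

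The widest cluster of the X arm in the replicate set was 67.1 kb wide, from 19265134 to 19332226, and its score was 0.902. Replicate 1 called 5 clusters in it that covered 93.8%, and replicate 2 called 9 clusters that covered 81.0%. It was followed by a cluster from 12599330 to 12658186 of 58.9 kb, whose score of 1.48 ranked 28th in the whole set. In replicate 1 this region held the widest cluster of the X arm, from 12605270 to 12651714 (46.4 kb), with a score of 1.73. In replicate 2 the widest was instead the region from 728726 to 782986, the third in the set with 54.3 kb and a score of 0.963, which replicate 2 called as 1 cluster covering 100.0% and replicate 1 as 2 clusters covering 95.9%.

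The other 7 of the 10 widest were 37.2 to 52.8 kb wide. They lay from 8077926 to 8130684 (score 1.08), from 17862380 to 17906638 (1.12), from 11386626 to 11429998 (1.09), from 16881708 to 16924128 (0.747), from 1140362 to 1182344 (1.05), from 10517434 to 10555726 (0.881) and from 2527418 to 2564630 (1.48). Across the 10 widest, coverage by replicate clusters was at least 78.8% in replicate 1 and 81.0% in replicate 2. The replicates divided them into 2 to 8 clusters in replicate 1 and 1 to 9 in replicate 2. These 10 were picked as the widest of the set, so the choice itself favours narrower calls in the other lists. After neighbouring set clusters with a gap under 500 bp were merged, the X arm had a domain of 79.9 kb, from 19252336 to 19332226, narrower than the widest merged domain of any autosomal arm.

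Division of broad clusters was common over the X arm and the autosomal arms alike. Of the 174 broad X clusters of the set, replicate 1 called 72 as 1 cluster and 102 as 2 or more. Replicate 2 called 78 as 1 cluster and 96 as 2 or more. On the autosomal arms, replicate 1 called 377 of 803 broad set clusters as 1 cluster (46.9%, against 41.4% on the X arm). Replicate 2 called 314 of them as 1 (39.1%, against 44.8% on the X arm), so the direction differed between the replicates. Every broad set cluster of these 5 arms overlapped at least 1 cluster of each replicate. The median part of a broad X cluster covered was 91.8% in replicate 1 and 90.8% in replicate 2.

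The 10 X clusters of highest score in the set were each found in both replicates and were seldom divided there. Presence in both was usual at such widths. Of X clusters of 5 to 10 kb, 98.8% in replicate 1 and 99.4% in replicate 2 were matched in the other replicate. For wider X clusters this share was 100% in both. The highest of the 10 lay from 2175162 to 2203790 (28.6 kb), and scored 1.82 and 1.58 in replicates 1 and 2. Its set score of 1.67 ranked 9th of all clusters. The second lay from 1974056 to 1986138 (12.1 kb), and scored 1.70 and 1.53 in replicates 1 and 2, and 1.58 in the set. The third lay from 385598 to 395788 (10.2 kb), and scored 1.63 and 1.56 in replicates 1 and 2, and 1.56 in the set. Replicate 1 gave the higher score to each of these 3.

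The remaining 7 had set scores of 1.49 to 1.54 and lay from 10279300 to 10289446, 6746616 to 6773146, 5625174 to 5632196, 6245574 to 6254646, 3564464 to 3594256, 10607282 to 10640570 and 6224128 to 6230276. The fifth, the seventh and the tenth lay within the window from 6000001 to 7000000, which also had the highest median score of the X windows in the set. The seventh and the tenth were 15.3 kb apart. Replicate 2 called each of the 10 as 1 cluster, and replicate 1 did so for 9. Replicate clusters covered at least 94.0% of each in replicate 1 and 92.7% in replicate 2. Their widths ran from 6.15 to 33.3 kb, 7 of them were broad, and 0 were among the 10 widest. Of the 10, 8 lay on the side of the arm's middle that is away from the centromere, which held 751 of the 1523 X clusters. Only 4 of the 10 widest lay on that side.

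The replicates were compared for the presence of each X cluster. Of the X clusters of replicate 1, 946 of 1172 (80.7%) overlapped a cluster of replicate 2 by at least 1 bp, where 78.7% did so in the whole list. Of the X clusters of replicate 2, 967 of 1183 (81.7%) overlapped one of replicate 1, where 84.6% did so in the whole list. Both shares were near those of the whole lists. On the X arm the unmatched clusters were about equally many in the lists, 226 in replicate 1 and 216 in replicate 2. On the autosomal arms they were 1059 in replicate 1 and 648 in replicate 2.

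Unmatched X clusters were short. Their median width was 1625.5 bp in replicate 1, where matched ones had 3179 bp, and 1612.5 bp in replicate 2, where matched ones had 3162 bp. None of the unmatched clusters was broad, on the X arm or on the autosomal arms. Of clusters under 2 kb, 55.5% were matched on the X arm and 50.9% on the autosomal arms in replicate 1. In replicate 2 this share was 59.5% on the X arm and 67.3% on the autosomal arms. Of clusters from 2 to 5 kb, 91.2% were matched on the X arm and 85.5% on the autosomal arms in replicate 1. The share in replicate 2 was 89.2% on the X arm and 92.9% on the autosomal arms. The X share was thus higher in replicate 1 and lower in replicate 2 in both classes. A wide cluster meets a rule of 1 bp more easily than a narrow one. In replicate 1 the median score was 0.631 for unmatched and 0.755 for matched X clusters, and 0.645 for matched autosomal clusters. In replicate 2 it was 0.613 for unmatched and 0.727 for matched X clusters, and 0.587 for matched autosomal clusters. Unmatched X clusters thus scored about as high as matched autosomal ones.

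Of the X clusters, 637 overlapped exactly 1 cluster of the other replicate that overlapped no other. Their scores had a Spearman correlation of 0.792 and a Pearson correlation of 0.851 between replicates, across clusters and not across samples. Replicate 1 gave the higher score in 63.7% of these pairs, with a median difference of 0.0488 and 90% of differences between -0.187 and 0.296. In 2344 autosomal pairs it gave the higher score in 72.4%, with a median difference of 0.0738. Replicate 1 had the wider cluster in 51.8% of X pairs and in 64.8% of autosomal pairs. In 38.3% of the X pairs and 38.4% of the autosomal pairs, the scores in the libraries differed by more than 0.129.

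**Figure D5:**
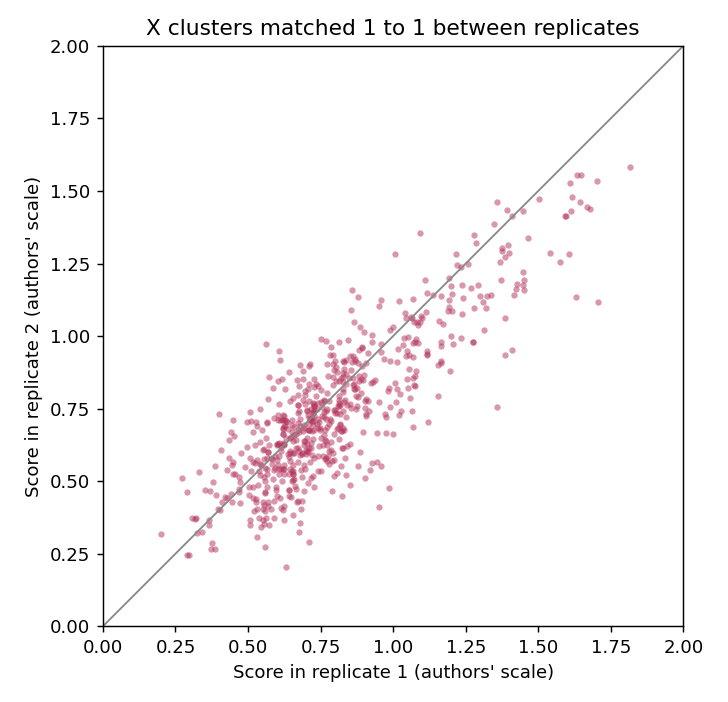
Score in replicate 1 (horizontal axis) and in replicate 2 (vertical axis), in the authors' units, for the 637 X clusters matched 1 to 1, 1 point each. The line marks equal scores, and 63.7% of the points lie on the side where replicate 1 is higher.

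In the replicate set, 745 of 1523 X clusters (48.9%) overlapped clusters of both replicates, where 48.0% did so in the whole list. They held 80.3% of the cluster width of the X arm at a median width of 5161 bp. Replicate 1 alone was overlapped by 179 X clusters (11.8%), against 14.3% of autosomal ones. Replicate 2 alone was overlapped by 170 X clusters (11.2%), against 8.20% of autosomal ones. The other 429 (28.2%) overlapped neither, where 29.3% did so in the whole list. These 429 had a median width of 1271 bp and a median score of 0.444, and held 8.48% of the width. The narrowest X cluster was 1001 bp wide in the set and 1301 bp in each replicate. The median of the 429 thus lay below the narrowest X cluster of either replicate list. How far this unequal lower limit of width accounts for the share in neither replicate was not tested. The score difference was present in each of these classes. For clusters in both replicates, the median set score was 0.659 on the X arm and 0.553 on the autosomal arms. For those in neither, it was 0.444 on the X arm and 0.350 on the autosomal arms.

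Clusters of the X arm that were found in part of the lists only were narrow. The widest set clusters seen in replicate 1 alone lay from 3485254 to 3491576 (6.32 kb), 12129760 to 12135896, 2652562 to 2658530, 9276988 to 9282288 and 10004222 to 10009256 (5.04 kb), and replicate 1 covered 29.9% to 65.1% of each. Those seen in replicate 2 alone lay from 7529158 to 7535358 (6.20 kb), 14880046 to 14885834, 7013086 to 7018786, 15861732 to 15867324 and 2686846 to 2692118 (5.27 kb), and replicate 2 covered 21.3% to 95.6% of each. The widest seen in neither lay from 10886908 to 10891638 (4.73 kb), 12136310 to 12140894, 5326564 to 5331082, 9403652 to 9408114 and 5570068 to 5574242 (4.18 kb). Scores of these 15 clusters in the set ran from 0.345 to 0.611.

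For 495 X clusters matched 1 to 1 across all 3 lists, the set score could be laid beside those of the replicates, if the lists share a scale. The median was 0.755 and 0.711 in replicates 1 and 2, and 0.640 in the set. The set score was below both replicate scores in 304 of them (61.4%), between them in 191 and above both in 0. Autosomal clusters behaved alike, with 1002 of 1779 (56.3%) below both. The median difference of the set score from the mean of the replicates was -0.114 for X clusters under 2 kb and -0.0289 for those of 20 kb or more. X and autosomal scores were for this reason compared within a list only.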

How the data were processed

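H3K18ac ChIP-seq of adult fly heads was analysed from 3 region lists deposited by the authors, 1 for each of the 2 ChIP libraries and 1 for the replicate set. Coordinates are FlyBase release 5, per the file headers. The score of each region was deposited by the authors, and its scale and log base are not stated. Bowtie 0.12.7 is named, without its role, per the submitters' processing notes. The region caller, its threshold, the read number and the way the set was made were not given in the sources used here. Depth is therefore unknown, and no counting interval could be computed.

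Regions with a score above 0 were kept. Arms were trimmed by the 10% of each sequence next to the centromere, which gave 20.2 Mb for the X and 86.9 Mb for the autosomal arms. Regions belong to an arm by their midpoint, and covered bases were cut at its limit. Clusters that share at least 1 bp overlap. Windows of 1 Mb were used where they lay whole within an arm. Named clusters are the 10 widest, the 10 of highest score and the 5 widest of each class seen in part of the lists. Medians, ratios and differences were computed within a list, and the mean and SD are over the 2 replicates. The 2 ChIP libraries form 1 group, so no test was run. The overlap and coverage routines were tested on simulated data. The members, lists and comparisons were chosen with earlier results of these data known. Python 3.11.15, numpy 2.4.6, pandas 2.3.3, scipy 1.17.1 and matplotlib 3.10.9 were used. The gene table at hand belongs to release 6, and its positions were not used. Alternatives covered the arm limit, joined clusters, a score filter, width classes, the definition of a broad cluster and the overlap rule.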

Additional observations from a re-analysis of the deposited data

How the results depend on the processing

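Of 39 alternative values, 15 stayed within their limit, 20 moved and 4 changed direction. The limit was 1.5 times for the number of clusters and 1 SD of the 2 replicates otherwise, which is narrow. A change of direction was counted even within the limit. This was so for the coverage ratio of replicate 2, which was 1.01 against 0.999 in the set, with an SD of 0.0630. The restriction of set clusters to at least the narrowest replicate cluster was chosen after seeing the data, as was leaving out 1 replicate for the number of X clusters (1523, which became 1172 to 1183) and for the share of broad ones. The share of the X arm covered in the set (36.8%) became 34.7% over the whole X, 33.5% for scores at or above the median, 35.4% without the narrow clusters and 26.1% to 26.4% when 1 replicate was left out, which leaves the list of the other. The X to autosome ratio of coverage (0.999) became 1.16 for scores at or above the median, where more X clusters pass by construction, and 0.919 to 1.01 when 1 replicate was left out. The ratio of clusters per Mb (1.10) became 1.14 with joined clusters and 1.06 to 1.11 when 1 replicate was left out. The difference in median score (0.100) became 0.103 within width classes and 0.124 to 0.133 when 1 replicate was left out, and kept its direction in all 6 alternatives. The difference in median width (160.0 bp) became 11.0 bp without the narrow clusters and -67.0 to -12.0 bp when 1 replicate was left out. The share of broad X clusters (11.4%) became 26.6% at 5 kb, 3.48% at 20 kb, 13.7% without the narrow clusters and 9.04% to 10.1% when 1 replicate was left out. The share of X clusters matched in the other list became 59.6% in replicate 1 and 59.1% in replicate 2 under reciprocal overlap of at least 50%, and 85.9% and 85.2% for scores at or above the median. No paired analysis was possible because no contrast between groups was fitted: input and ChIP share numbers, but the inputs have no list of their own. Several of these moves had a direction fixed by construction. A limit of 5 kb can only raise the share of broad clusters, and a limit of 20 kb can only lower it. Leaving out clusters by score or by narrow width can only lower coverage, and without the narrow ones the broad share can only rise. Reciprocal overlap of at least 50% can only lower the share matched by 1 bp. Where no construction is named, the cause was not tested. With depth unknown, a weak cluster missing from 1 list cannot be called absent.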

Other observations

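No region of the X sequence was marked as depleted in any of the 3 lists, which mark 18 depleted regions in the replicate set and 1 in each replicate over the whole genome.

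Of the 1523 X clusters of the set, 4 had a score under 0.1, and they were looked at after their values were seen. The cluster from 6188102 to 6189932 had 0.0593 in the set, although the overlapping cluster had 0.526 in replicate 1 and 0.429 in replicate 2. Its difference from the mean of the replicates, -0.418, was the lowest among the 495 X clusters matched in all 3 lists, and the lowest among 1779 autosomal ones was -0.262. The other 3 lay from 2518136 to 2519936, from 11472534 to 11474294 and from 16487188 to 16488832. Replicate 1 called none of these 3, and replicate 2 called the first with 0.150 and the second with 0.154.

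Neighbouring X clusters had nearly unrelated scores. The Spearman correlation of the score of a cluster with that of the next one along the arm was 0.0504 and 0.0750 in replicates 1 and 2, and 0.0507 in the set. On the autosomal arms it ran from 0.0815 to 0.133 in replicate 1, from 0.0277 to 0.0914 in replicate 2 and from 0.0689 to 0.100 in the set.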
